A study of Mus musculus with 17 samples.

Results

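The receptors megalin and cubilin and the proteins that work with them were followed across the kidneys of healthy mice, diabetic mice and diabetic mice given dapagliflozin. They were 7 genes (Lrp2, Cubn, Amn, Dab2, Clcn5, Fcgrt and Lrpap1), found by symbol among the 22558 genes of the deposited expression table that could be used. RNA of whole kidneys had been sequenced from 17 male mice, with 1 library per mouse. The Ctrl group held 5 C57BL/6 mice that received saline. The Case group held 6 db/db mice (BKS.Cg-Dock7m +/+ Leprdb/J), which are homozygous for a mutation of the leptin receptor and become diabetic, and they received saline too. In the Dapa group, 6 db/db mice were instead treated with dapagliflozin, which blocks SGLT2, the glucose transporter of the proximal tubule. Treatment began at an age of 8 weeks and lasted for 6 weeks, with a daily dose of 1 mg/kg. Since Ctrl and db/db mice differ in strain as well as in diabetes, strain and diabetes cannot be told apart in any comparison with Ctrl.

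In the healthy kidney, small proteins and some albumin pass the glomerular filter and are taken back by the early proximal tubule. Megalin, the giant receptor encoded by Lrp2, and cubilin, encoded by Cubn and held at the membrane by amnionless (Amn), bind these proteins at the brush border. The adaptor Dab2 links the receptors to clathrin, and the chloride-proton exchanger ClC-5 (Clcn5) serves the endosomes that the cargo enters. The chaperone RAP (Lrpap1) keeps megalin and its relatives free of ligand while they are made, and the neonatal Fc receptor (Fcgrt), paired with beta-2 microglobulin, carries albumin and IgG back from the endosome. Loss of megalin or of ClC-5 is known to cause low molecular weight proteinuria.

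As the deposited table places them on mm10 (GRCm38), with strands from GENCODE vM21, whose bounds differ slightly for Amn and Fcgrt, Lrp2 lies on the minus strand at chr2:69424340-69586065 and Cubn on the minus strand at chr2:13276338-13491813. Amn is at chr12:111271111-111276426 (plus strand), Dab2 at chr15:6299788-6440712 (plus), Clcn5 at chrX:7153810-7319358 (minus), Fcgrt at chr7:45092993-45103822 (minus) and Lrpap1 at chr5:35091501-35105766 (minus). The 7 genes are protein coding, and the annotated transcript with the most exons has 79 exons for Lrp2 and 67 for Cubn. Of the 50-base stretches of their transcripts, 2.14% for Dab2 and 1.85% for Cubn also occur in transcripts of other genes, and none for the other 5 genes. Genes of the opposite strand overlap Cubn (Gm13270), Dab2 (Gm16311 and Gm18888), Clcn5 (Gm26401) and Fcgrt (Gm45669), and although the libraries were made with a kit that keeps strand, whether counting used it is not given in the sources used here, so reads of these pairs may not have been told apart.

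The stretches upstream of the starts of 5 genes are shown, because 4 of them (Lrp2, Lrpap1, Amn and Fcgrt) were lower in both comparisons with Ctrl and Cubn encodes the partner of Amn. Each runs 5′ to 3′ on the strand of the gene, from 250 to 71 bases before the start in RefSeq (GRCm38.p6), and capitals mark the GC box GGGCGG on either strand.
Lrp2, chr2:69586100-69586279, minus strand: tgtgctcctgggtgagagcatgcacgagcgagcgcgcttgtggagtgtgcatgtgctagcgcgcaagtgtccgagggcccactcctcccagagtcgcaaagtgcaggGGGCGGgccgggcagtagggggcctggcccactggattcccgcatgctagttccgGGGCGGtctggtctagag
Lrpap1, chr5:35105770-35105949, minus strand: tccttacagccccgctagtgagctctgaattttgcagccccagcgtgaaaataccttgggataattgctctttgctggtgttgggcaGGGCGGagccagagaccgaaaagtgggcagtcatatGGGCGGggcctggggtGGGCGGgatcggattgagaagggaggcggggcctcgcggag
Amn, chr12:111270846-111271025, plus strand: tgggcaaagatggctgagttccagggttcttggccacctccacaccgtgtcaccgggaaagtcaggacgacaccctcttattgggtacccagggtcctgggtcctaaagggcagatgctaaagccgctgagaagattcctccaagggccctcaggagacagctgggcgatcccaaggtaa
Fcgrt, chr7:45103893-45104072, minus strand: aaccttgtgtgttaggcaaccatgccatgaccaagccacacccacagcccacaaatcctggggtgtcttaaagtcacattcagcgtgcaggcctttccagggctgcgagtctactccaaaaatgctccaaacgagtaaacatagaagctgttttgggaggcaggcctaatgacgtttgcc
Cubn, chr2:13491947-13492126, minus strand: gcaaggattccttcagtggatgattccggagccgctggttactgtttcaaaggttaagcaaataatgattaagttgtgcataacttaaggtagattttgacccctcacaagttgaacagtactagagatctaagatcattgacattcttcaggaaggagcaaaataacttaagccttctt

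The window of Lrp2 holds 2 GC boxes and that of Lrpap1 holds 3, whereas those of Amn, Fcgrt and Cubn hold none. Of all 32851 promoters in the RefSeq table, 21.1% hold at least 1 in this window of 180 bases. The guanine and cytosine content of the windows is 66.7% for Lrp2, 60.6% for Lrpap1, 57.8% for Amn, 51.1% for Fcgrt and 38.9% for Cubn, against a median of 51.1% over all promoters. None of the windows of the 7 genes, 9 in all since Dab2 and Clcn5 have 2 starts each, holds the E-box CACGTG (3.7% of all promoters), the HNF1 half-site GTTAAT (4.8%) or the nuclear receptor half-site AGGTCA (10.2%) on either strand. The letters TATAAA (8.4%) are found in 1 of them, the window of the Clcn5 start that lies inside the gene. The 70 bases next to each start were left out, so the windows cannot show whether a start has a TATA box.

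Total counts per mouse were 15757676 to 16902608 in Ctrl, 14229892 to 17779635 in Case and 13039535 to 16094410 in Dapa. The 7 genes were well above the detection limit in every mouse, with the lowest count (691) for Amn and the highest (57507) for Lrp2. Mitochondrial genes took 17.9% to 20.4% of the counts in Ctrl, 19.8% to 27.3% in Case and 19.7% to 27.6% in Dapa, with 5 of 6 Case and 4 of 6 Dapa libraries above the Ctrl range. Fits without these genes called 4 of the 7 genes between Case and Ctrl, 0 between Dapa and Case and 6 between Dapa and Ctrl, the counts found with them. No gene of the 8 lists of cell type markers was at 0 in every library, and the early proximal tubule markers summed to 2855 to 3142 FPKM in Ctrl (a level corrected for library total and gene length). In 8 libraries (Ctrl 1 to 4, Case 1 and Dapa 10 to 12) the FPKM of the 3 genes written over 2 lines of the table departed from their counts by a factor of 0.725 to 1.03, so results are also given with a term for these 8 libraries and within them.

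In Ctrl kidneys Lrp2 had the highest level of the 7 genes (mean 163 FPKM), followed by Fcgrt (90.3), Lrpap1 (71.1), Amn (55.4), Cubn (35.6), Dab2 (31.1) and Clcn5 (12.6). Each neighbour in this order was separated from the next in all 5 mice without overlap, except Cubn and Dab2, whose ranges overlapped. In Case kidneys the order of the first 4 was the same, but the ranges of Lrp2 (mean 87.5 FPKM) and Fcgrt (74.4) overlapped, and Lrp2 was the higher of the pair in 4 of 6 mice. Dab2 (33.3 FPKM) stood above Cubn (26.6) in 5 of 6 Case mice. The mean FPKM of Lrp2 over the 17 mice ranked 296 among 22558 genes, and that of Clcn5 ranked 3241.

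**Figure D1:**
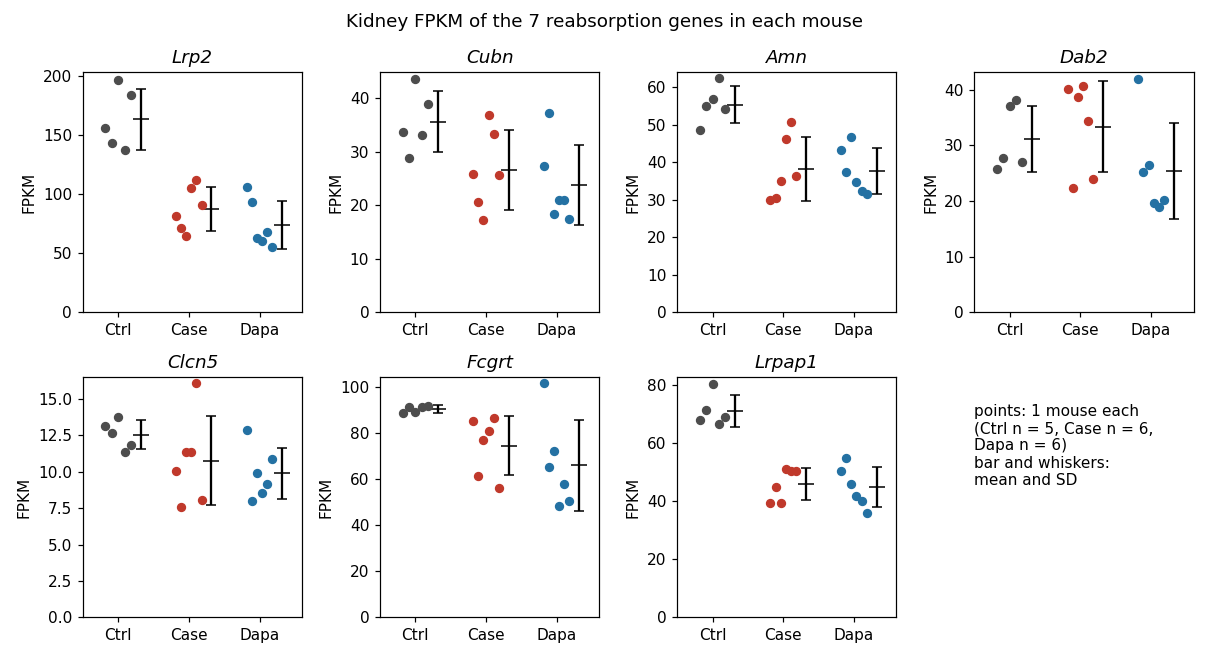
FPKM of each of the 7 genes (vertical axes, starting at 0) in the Ctrl (n = 5), Case (n = 6) and Dapa (n = 6) groups, with 1 point per mouse in the order of the mouse numbers and a bar with whiskers for the mean and SD. The Ctrl points of Lrp2 (137 to 197) and Lrpap1 (66.6 to 80.5) lie above all Case and Dapa points, whereas those of Dab2 (25.8 to 38.1) lie within the range of both.

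The comparison of Case with Ctrl asked how the diabetic kidney differs from the healthy one. Messages of megalin, its chaperone, amnionless and the neonatal Fc receptor were lower in Case, and none of the 7 genes was higher. By edgeR's quasi-likelihood test with q under 0.05 over all genes tested, 4 of 7 were lower (Lrp2, Lrpap1, Amn and Fcgrt), while 6.91% of the 14582 genes tested were lower and 6.09% higher. Without 1 mouse the calls over all genes ranged from 1002 (416 higher and 586 lower, without Ctrl 3) to 2154 in place of 1895, and were 1160, 1150 and 1125 without Ctrl 1, Ctrl 2 and Ctrl 5. The median log2 fold change of the 7 was -0.50, against 0.031 over all genes tested. In bulk kidney RNA, fewer proximal tubule cells and less RNA of a gene per cell cannot be told apart.

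Megalin showed the largest fall of the 7. Lrp2 was at 156, 143, 197, 137 and 184 FPKM in the 5 Ctrl mice and at 64.3 to 112 (median 86.1) in the 6 Case mice. The groups did not overlap, and every Case mouse was below every Ctrl mouse. The log2 fold change was -0.98 ± 0.17 (SE; q = 0.00407), and 2.18% of the genes tested had a change as low or lower. Its mean FPKM fell by 46.5%, short of the 2-fold threshold that is added to q for a differentially expressed gene (DEG), so none of the 7 was a DEG in this comparison, as 3.79% of the genes tested were.

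The chaperone followed its receptor. Lrpap1 was at 68.0, 71.6, 80.5, 66.6 and 69.0 FPKM in Ctrl and at 39.3 to 51.1 (median 47.7) in Case. Again the groups did not overlap. Its log2 fold change was -0.71 ± 0.11 (SE; q = 0.00228). Lrp2, Lrpap1 and Fcgrt were the 3 genes whose Case range lay wholly below the Ctrl range, as it did for 3.46% of all genes tested.

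The 2 subunits of the cubilin receptor gave different test results, and the difference between them was not tested. Amn was at 48.5, 55.1, 56.8, 62.5 and 54.1 FPKM in Ctrl and at 29.9 to 50.7 (median 35.7) in Case. In 5 of 6 Case mice it was below every Ctrl mouse, and Case 5 overlapped with Ctrl 1. The log2 fold change of Amn was -0.61 ± 0.14 (SE; q = 0.0146). Cubn was at 33.7, 28.9, 43.5, 33.0 and 38.8 FPKM in Ctrl and at 17.2 to 36.9 (median 25.7) in Case, and 4 of 6 Case mice were below the Ctrl range. For Cubn the log2 fold change was -0.50 (95% interval -0.91 to -0.079), which did not pass the adjustment over all genes (q = 0.108).

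Of the endosomal genes, Fcgrt was called by a narrow margin. It varied little in Ctrl, with 88.4, 91.3, 88.8, 91.3 and 91.8 FPKM, and ranged from 56.2 to 86.4 (median 78.8) in Case. The log2 fold change was -0.36 ± 0.11 (SE; q = 0.0432), and q was 0.05 or more in 9 of the 11 fits that left out 1 mouse (up to 0.0906, without Ctrl 2) and in 10 of 16 other settings. Without Case 1 or Case 5 the call was kept (q = 0.0279 and 0.0213). Clcn5 was at 11.4 to 13.8 FPKM in Ctrl and at 7.60 to 16.1 in Case, where 5 mice were below the Ctrl range and Case 5 was above it. Its log2 fold change was -0.31 (95% interval -0.66 to 0.045; q = 0.234), and without Case 5 it was -0.48 with q = 0.0227.

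Dab2, the adaptor, was at 25.8 to 38.1 FPKM in Ctrl and at 22.3 to 40.6 in Case. Case mice were found on both sides of the Ctrl range, with 2 below and 3 above it. The log2 fold change was 0.017 (95% interval -0.35 to 0.38; q = 0.963), an interval that leaves room for a change of either sign.

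Beta-2 microglobulin, the partner chain of Fcgrt and itself a ligand of megalin, showed the opposite direction. B2m was at 267, 287, 263, 263 and 251 FPKM in Ctrl and at 204 to 1111 (median 617) in Case, where 4 of 6 mice were above the Ctrl range and Case 6 was below it. The log2 fold change was 1.17 ± 0.36 (SE; q = 0.0495). The call of B2m was lost in 9 of the 11 fits without 1 mouse (q up to 0.107) and in 6 of 16 other settings.

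**Figure D2:**
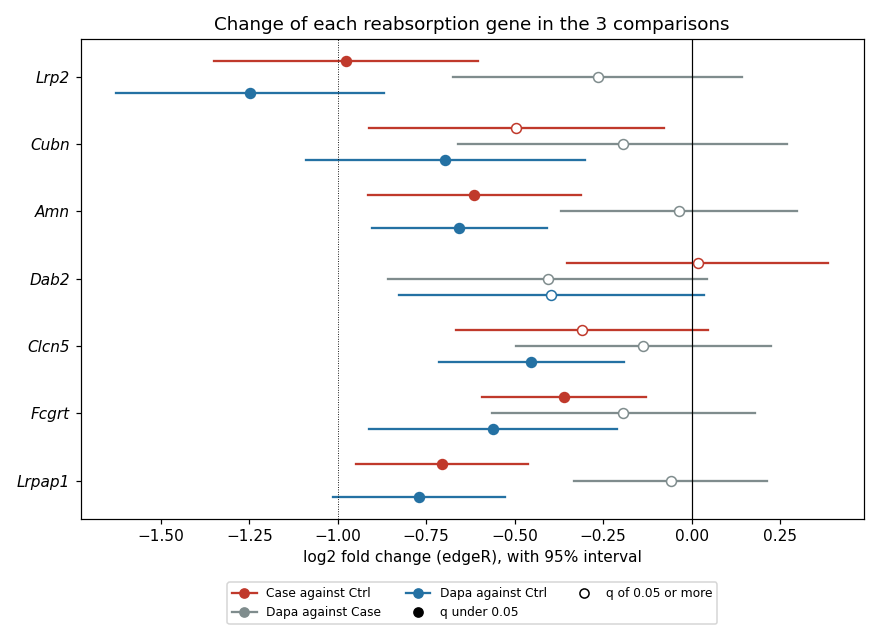
Log2 fold change of each gene (horizontal axis, edgeR estimate as a point, 95% interval as a line) in the 3 comparisons, with filled points for q under 0.05 and a dotted line at -1. All estimates against Ctrl are below 0 except that of Dab2 in Case (0.017), and every interval of Dapa against Case crosses 0.

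The comparison of Dapa with Case asked whether the drug changed these genes in the diabetic kidney. None of the 7 passed the test, and neither did any of the 14573 genes tested (0.0%), of which 1880 had an unadjusted p under 0.05. Elsewhere in the transcriptome, DESeq2 called 202 genes and edgeR's exact test 129, and neither called any of the 7. All 7 estimates were below 0, from -0.41 for Dab2 to -0.036 for Amn, as were 51.2% of all genes tested.

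Lrp2 was at 55.5 to 106 FPKM in Dapa (median 65.6), which overlapped with the Case range of 64.3 to 112. The log2 fold change was -0.27 with a 95% interval of -0.67 to 0.14 (q = 0.562). For Lrpap1, with 35.9 to 54.9 FPKM in Dapa (median 44.1), it was -0.059 (-0.33 to 0.21; q = 0.873). Amn (31.4 to 46.6 FPKM, median 36.1) had -0.036 (-0.37 to 0.30; q = 0.941) and Cubn (17.5 to 37.2 FPKM, median 20.9) had -0.19 (-0.66 to 0.27; q = 0.732). The upper bounds of these 4 intervals (0.14 to 0.30) were smaller in size than the estimates of Case against Ctrl (-0.50 to -0.98), with which this comparison shares its Case mice. Those estimates have intervals of their own. That of Cubn, whose fall in Case was not called, was -0.91 to -0.079 and includes falls smaller in size than its upper bound here (0.27). Moderate changes in either direction lie within all 4 intervals of Dapa against Case.

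Dab2 was at 18.9 to 26.5 FPKM in 5 Dapa mice and at 41.9 in Dapa 7, and its log2 fold change against Case was -0.41 (95% interval -0.86 to 0.045; q = 0.421). Fcgrt ranged from 48.2 to 101 FPKM in Dapa (median 61.5), again with the highest value in Dapa 7, and had a log2 fold change of -0.19 (-0.57 to 0.18; q = 0.662). Clcn5 (7.99 to 12.8 FPKM in Dapa, median 9.53) had -0.14 (-0.50 to 0.22; q = 0.759). B2m was lower in Dapa (199 to 550 FPKM, median 299) than in Case by an estimate of -0.95 on the log2 scale, which did not pass the adjustment (q = 0.322).

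The 3 Dapa libraries among the 8 that stand apart had a lower mean FPKM than the other 3 for all 7 genes. Dapa 10 to 12 were at 18.9 to 20.2 FPKM for Dab2 and 48.2 to 57.9 for Fcgrt, while Dapa 7 to 9 were at 25.2 to 41.9 and 65.1 to 101. Lrp2 was at 55.5 to 68.3 FPKM in the former and 62.9 to 106 in the latter. Within the other libraries (3 Dapa, 5 Case) the log2 fold changes were -0.036 for Dab2, -0.044 for Lrp2, 0.026 for Cubn and 0.14 for Fcgrt, and none passed the test. Within the libraries that stand apart (3 Dapa, 1 Case) Dab2 had -1.09 with q = 0.0220, a value that rests on a single Case mouse.

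Slc5a2, which encodes the drug target SGLT2, was at 58.6 to 72.8 FPKM in Ctrl, 26.4 to 85.3 in Case and 48.0 to 85.3 in Dapa. It passed the test in none of the 3 comparisons (q = 0.481 between Case and Ctrl, 0.676 between Dapa and Case, and 0.892 between Dapa and Ctrl). Other settings called it once in each comparison. Within the 8 libraries that stand apart, where Case 1 was the only Case mouse, it had -1.34 in Case against Ctrl (q = 0.0146) and 1.21 in Dapa against Case (q = 0.0301). On the scale of early proximal tubule markers described below, of which it is itself one, it had 0.37 in Dapa against Ctrl (q = 0.0317).

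The comparison of Dapa with Ctrl shares its Ctrl mice with the comparison of Case with Ctrl, so the 2 are given side by side and neither supports the other. In treated diabetic kidneys 6 of 7 genes were lower than in Ctrl and Dab2 did not pass the test, while 14.9% of the 14647 genes tested were lower and 14.2% higher. Lrp2 fell by 1.25 on the log2 scale (SE 0.18, q = 0.000557, against -0.98 in Case) and was the only DEG of the 7 (7.18% of all genes tested). Its mean FPKM fell by 54.6%. Lrpap1 fell by 0.77 (SE 0.11, q = 0.00065) and Amn by 0.66 (SE 0.11, q = 0.00163). For Lrp2, Lrpap1 and Amn all 6 Dapa mice were below all 5 Ctrl mice, a separation found for 4.74% of all genes tested.

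Cubn, which had missed the threshold in Case, fell by 0.70 in Dapa (SE 0.18, q = 0.0137), with 5 of 6 mice below the Ctrl range. Clcn5 fell by 0.45 (SE 0.12, q = 0.0148), again with 5 of 6 mice below. Fcgrt fell by 0.56 (SE 0.16, q = 0.0214), with 5 of 6 mice below the Ctrl range and Dapa 7 above it. Dab2 had -0.40 (95% interval -0.83 to 0.034; q = 0.152), and without Dapa 7 the value was -0.59 with q = 0.00892. The more frequent calls against Ctrl in Dapa than in Case were not accompanied by a called difference between Dapa and Case, as described above.

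Markers of the early proximal tubule, where these genes are active, were followed in the same mice. Over 14 early (S1 and S2 segment) markers the mean log2 CPM (a level corrected for library total but not for length) was 9.15 ± 0.10 in Ctrl (SD, n = 5), 8.79 ± 0.36 in Case (n = 6) and 8.75 ± 0.19 in Dapa (n = 6). The Case range (8.36 to 9.15) overlapped with that of Ctrl (9.04 to 9.29), and the Dapa range (8.50 to 8.96) lay below it. Of these markers 2 of 14 were lower in Case and 5 of 14 in Dapa against Ctrl, beside 6.91% and 14.9% of all genes tested, and none was higher. Negative log2 fold changes were found for 11 of 14 in Case and 14 of 14 in Dapa, with medians of -0.28 and -0.37. Libraries were also scaled to these markers, an alternative chosen after seeing the data, which raised the median log2 fold change of all genes to 0.42 in both comparisons with Ctrl. The calls over all genes moved with it, to 13.6% higher and 1.46% lower in Case and 47.2% higher and 3.55% lower in Dapa. On that scale Lrp2 was still lower in Case (-0.65, q = 0.012) and in Dapa (-0.86, q = 0.000868). It was then the only call of the 7 in Case, and Lrpap1 (-0.38, q = 0.00533) and Amn (-0.28, q = 0.0330) joined it in Dapa. In Case, Fcgrt (-0.36 on the usual scale) had 0.022 on this one, and Clcn5, which had passed on neither, had 0.049. Late (S3 segment) markers, given below, had lower medians than the early ones and were not part of this scale.

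With a term for the 8 libraries that stand apart, Lrp2 (-1.07, q = 0.0215), Lrpap1 (-0.77, q = 0.0185) and Amn (-0.73, q = 0.0495) stayed lower in Case, whereas Fcgrt did not pass (-0.29, q = 0.255). Against Ctrl, the same 6 genes were lower in Dapa as without the term. With the term, 2.15% of all genes tested were higher and 3.0% lower in Case, and 14.9% higher and 15.5% lower in Dapa. Among the 8 libraries alone, Lrp2 was at 81.4 FPKM in Case 1 against 137 to 197 in Ctrl 1 to 4 (log2 fold change -1.05, q = 0.0731). Among the other libraries it was at 64.3 to 112 in Case 2 to 6 against 184 in Ctrl 5 (-1.10, q = 0.324). Both within-group fits rest on 1 mouse on one side and called 2 members (Amn and Lrpap1) and 0 members, while Dapa against Ctrl had 7 called within the 8 libraries and 0 within the others, where Ctrl 5 stood alone. Over all genes these fits called 456 of 15550 and 17 of 15809 in Case, and 4090 of 14829 and 2 of 15504 in Dapa, so hardly any gene was called within the other libraries.

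**Figure D3:**
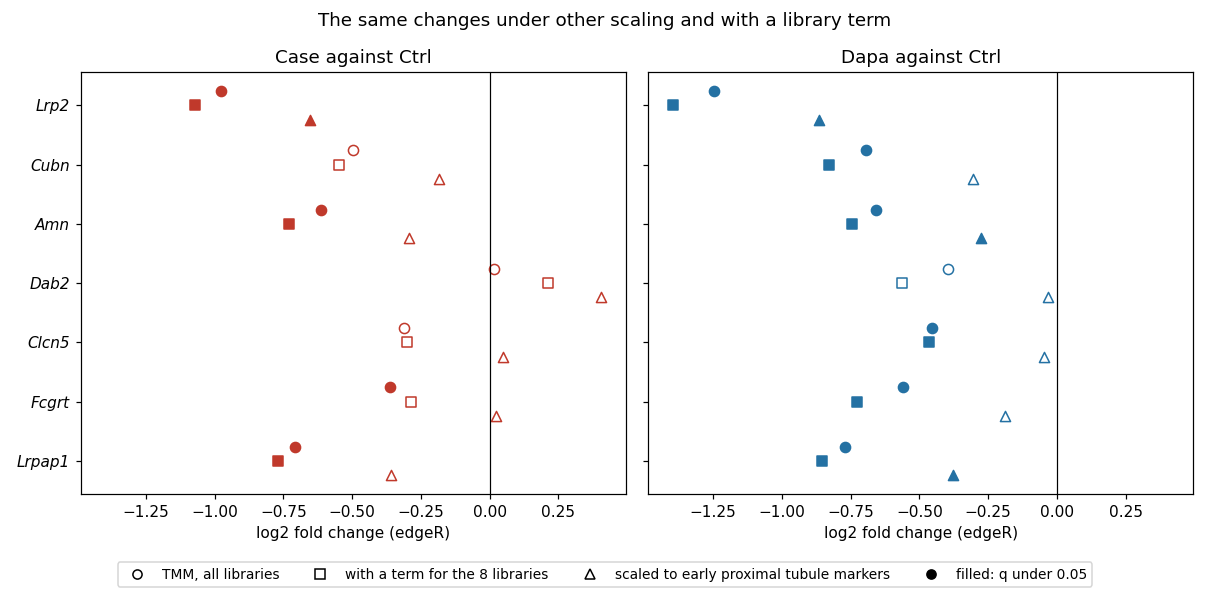
Log2 fold change of each gene (horizontal axes) against Ctrl in Case and in Dapa, by the usual TMM scaling (circles), with a term for the 8 libraries that stand apart (squares) and after scaling to early proximal tubule markers (triangles), with filled symbols for q under 0.05. Lrp2 is filled in all 6 positions, and in Case the triangles of Fcgrt (0.022) and Clcn5 (0.049) lie at 0 or just above.

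Markers of other cells were also followed. Of the late (S3 segment) proximal tubule markers 6 of 8 were lower in both comparisons with Ctrl (medians -1.30 in Case and -1.39 in Dapa) and summed levels of 306 to 677 FPKM in Ctrl, 117 to 208 in Case and 85.6 to 309 in Dapa. Of 6 tubular injury markers tested, 3 were higher in Case and 3 in Dapa against Ctrl, and the whole list of 8 summed to 90.9 to 153 FPKM in Ctrl, 270 to 1467 in Case and 265 to 708 in Dapa. Beside 6.09% of all genes tested in Case and 14.2% in Dapa, higher calls against Ctrl were made for 2 of 8 podocyte markers in Case and 2 in Dapa, for 2 and 3 of 9 markers of the loop and distal tubule, for 3 and 6 of 10 of the collecting duct, for 1 and 1 of 10 of the endothelium, and for 1 of 11 and 1 of 9 tested macrophage markers, with none lower. The part that these cells had in the results of the 7 genes was not tested.

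Beyond the receptors, 135 further genes of the route were followed from coated pit to lysosome, in 7 lists. In Case against Ctrl 25 of 134 tested passed, 9 higher and 16 lower, or 18.7% beside 13.0% of all genes tested in either direction. Their median log2 fold change was -0.070. In Dapa against Ctrl 50 of 133 passed (19 higher and 31 lower), beside 29.1% of all genes tested, and in Dapa against Case none of 133 did.

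The counts of the single lists in Case stand beside 6.09% of all genes tested that were higher and 6.91% that were lower, and those in Dapa against Ctrl beside 14.2% and 14.9%. At the coated pit, 1 of 19 genes was higher in Case and 1 lower, shares near those of all genes. Hip1r, which ties clathrin coats to actin, rose by 0.48 on the log2 scale (q = 0.0395), and Epn1, an epsin of the coat, fell by 0.39 (q = 0.0411). Leaving out 1 mouse ended the call of Hip1r in 7 of 11 fits (q up to 0.0951) and that of Epn1 in 8 of 11 (q up to 0.109), and Epn1 was also lost in 10 of 16 other settings. In endosome sorting and recycling 2 of 25 were lower. These were Rab38 (-0.61, q = 0.0241), a small GTPase, and Vps35 (-0.27, q = 0.0486), a subunit of the retromer that returns receptors from endosomes. The call of Vps35 was lost in 9 of 11 fits without 1 mouse (q up to 0.118) and in 12 of 16 other settings, and that of Rab38 in 3 of 11 (q up to 0.0706) and 5 of 16. Rab38 had -0.26 in Dapa against Ctrl (q = 0.378), and Vps35 had -0.36 (q = 0.00401).

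Endosome acidification, a list of the proton pump, 2 chloride-proton exchangers (Clcn3 and Clcn4) and the sodium-proton exchanger Slc9a3, had 2 of 24 genes higher and 1 lower in Case. The pump subunits Atp6v1g3 (0.51, q = 0.0249) and Atp6v1c2 (0.33, q = 0.0400) rose, and the more abundant Atp6v1c1 fell by 0.31 (q = 0.0164), with mean FPKM of 17.5, 7.63 and 52.4 in Ctrl. Without 1 mouse, Atp6v1c2 lost its call in 7 of 11 fits, Atp6v1g3 in 3 and Atp6v1c1 in 1. Atp6v1g3 is known from intercalated cells of the collecting duct, and 3 of 10 collecting duct markers were higher in Case, whose part in this result was not tested. Dapa kidneys had 5 of 24 higher than Ctrl, all of them pump subunits, and 7 lower, which were 4 pump subunits and the 3 exchangers.

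In the lysosome 2 of 26 genes were higher and 4 lower in Case. Hexa, a lysosomal enzyme that trims sugars from glycolipids, rose from 16.9 ± 2.06 FPKM in Ctrl to 28.4 ± 2.85 in Case (SD; log2 fold change 0.67, q = 0.000957), without overlap. Psap, the precursor of the saposins that assist lipid breakdown, fell by 0.66 (q = 0.00378). Against Ctrl the log2 fold changes in Dapa were 0.43 for Hexa and -0.63 for Psap, with 3 of 26 lysosomal genes higher and 7 lower.

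Of the other LDL receptor relatives, 4 of 13 tested were lower in Case and none higher, among them Lrp12 (-0.87, q = 0.0157), Lrp3 (-0.58, q = 0.0175) and Vldlr, the VLDL receptor (-0.38, q = 0.0400). The call of Vldlr was lost in 8 of 11 fits without 1 mouse (q up to 0.104) and in 10 of 16 other settings, while Lrp12 and Lrp3 kept theirs in every fit without 1 mouse. Their levels were below those of Lrp2, with mean FPKM of 5.54, 2.91 and 9.96 in Ctrl. Dapa had 2 of 13 higher and 4 lower than Ctrl.

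Messages of filtered ligands and their handling had 4 of 17 genes higher and 3 lower in Case. Gc, the vitamin D-binding protein and a ligand of megalin, rose from 5.79 ± 2.27 to 76.7 ± 72.1 FPKM (SD; log2 fold change 3.65, q = 0.002), with all 6 Case mice above all Ctrl mice. Lcn2, a small ligand of megalin that injured tubules make, rose from 0.172 ± 0.120 to 4.62 ± 5.83 FPKM (4.60, q = 0.0123), with a spread in Case larger than its mean. Its counts were 4 to 29 in Ctrl and 27 to 1225 in Case, so its fold is imprecise. The corresponding values in Dapa were 3.00 (q = 0.000303) and 3.56 (q = 0.00584), with 5 of 16 genes of the list higher and 3 lower. Both calls held without any 1 mouse, but the log2 fold change of Lcn2 ranged from 3.72 (without Case 3) to 5.09 in Case and from 2.48 (without Dapa 8) to 4.06 in Dapa, and that of Gc in Case from 2.98 (without Case 1) to 3.88. Among regulators of proximal tubule genes 1 of 10 was lower in Case, the homeobox gene Cux1 (-0.64, q = 0.00687), and 3 of 10 were lower in Dapa against Ctrl.

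**Figure D4:**
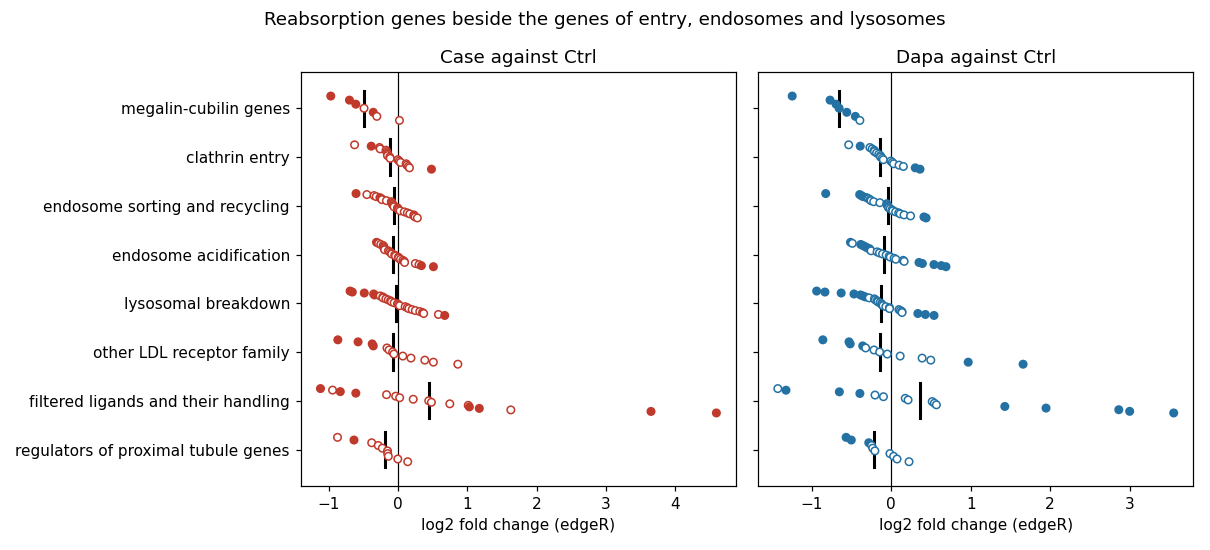
Log2 fold change (horizontal axes) of each gene of the megalin-cubilin set and of the 7 further lists (rows) in Case and in Dapa against Ctrl, with 1 point per gene, filled for q under 0.05, and a black bar at the median of the list. The medians of the 7 genes (-0.50 and -0.66) lie below those of all the other lists, of which the lowest are the regulators (-0.19 and -0.22).

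The 7 genes did not vary independently from mouse to mouse. After the mean of each group was taken away, Pearson's r of log2 CPM over the 17 mice was positive for all 21 pairs, from 0.11 (Clcn5 with Lrpap1) to 0.90 (Lrp2 with Cubn), with a median of 0.55. High values were also found for Dab2 with Fcgrt (0.84) and Lrp2 with Lrpap1 (0.81). The mean of the early proximal tubule markers was most alike to Amn (r = 0.83) and Lrpap1 (0.82) and least to Dab2 (0.24), with 0.71 for Lrp2. These values are descriptions, since the genes of 1 library share its depth, its scaling and its share of tubule cells.

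**Figure D5:**
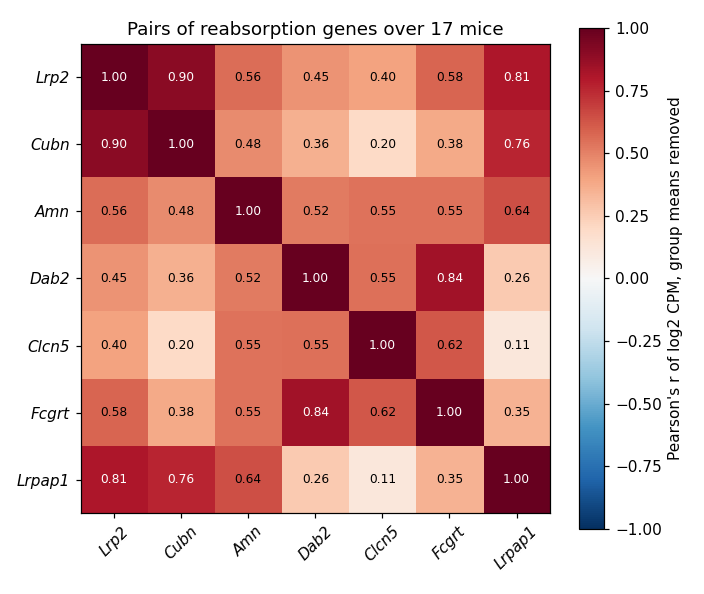
Pearson's r of log2 CPM for each pair of the 7 genes over 17 mice after removal of the group means (colour scale from -1 to 1, values printed). Lrp2, Cubn and Lrpap1 form one block of high values (0.76 to 0.90), and Dab2 with Fcgrt another (0.84).

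The lead of megalin over its partners was smaller in the db/db groups, as ratios within each mouse show. The ratio of Lrp2 to Cubn in FPKM was 4.60 ± 0.30 in Ctrl (SD, n = 5; 4.15 to 4.97), 3.35 ± 0.31 in Case (n = 6; 2.85 to 3.73) and 3.19 ± 0.47 in Dapa (n = 6; 2.50 to 3.87), so the ranges of both db/db groups lay below that of Ctrl. Lrp2 to Dab2 was 5.39 ± 1.20, 2.76 ± 0.81 and 3.00 ± 0.56, and Lrp2 to Lrpap1 was 2.29 ± 0.27, 1.89 ± 0.27 and 1.64 ± 0.26, with overlap between Ctrl and the db/db groups in both ratios. Fcgrt to B2m was 0.340 ± 0.018 in Ctrl, 0.163 ± 0.101 in Case and 0.212 ± 0.063 in Dapa, and the Case and Dapa ranges were below the Ctrl range. The ratios were chosen after the values were seen and are given without a test.

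Genes most alike to each member over the 17 mice, by pooled r of log2 CPM among 15060 genes, were Slc6a20b (0.98), Hykk (0.97) and Acss2 (0.97) for Lrp2, and Eci3, Pmpcb and Ces2c for Lrpap1 (0.96 to 0.97). For Cubn they were Ddah1, Por and Entpd5 (0.94 each to 2 decimals), and for Amn Slc22a18, Suox and Pepd (0.94 to 0.95). For Fcgrt they were Cpt2, Tgoln1 and Pxmp4 (0.94 to 0.95), for Clcn5 Plekha6, Ube4b and AI464131 (0.89 to 0.93), and for Dab2 Ggact, Mmachc and 4933411K16Rik (0.82 to 0.85). The pooled values include the difference between groups, and with group means removed they were 0.92, 0.88 and 0.92 for the genes most alike to Lrp2.

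The urinary albumin-creatinine ratio, a measure of how much albumin escapes reabsorption or leaks through the filter, is listed per mouse in the study's supplement and was joined to the libraries of the 6 Case mice by group and number. Nothing else ties a listed mouse to its library, so this pairing is uncertain. None of the 7 genes was related to it at an exact p under 0.05, while 4.16% of the 14582 genes tested were. The smallest q over all genes was 0.905, but with so few pairings of 6 mice a q under 0.05 could hardly be reached. Pearson's r of log2(FPKM + 1) ranged from -0.28 for Lrpap1 to 0.62 for Dab2. For Dab2 the exact two-sided permutation p was 0.20 and Spearman's rho was 0.60 (exact p = 0.242), and r was 0.25 without the 2 mice farthest from the median ratio. For Lrp2 r was -0.22 (exact permutation p = 0.704), rho was -0.20 (exact p = 0.714) and r was 0.26 without those 2 mice. With 6 mice, whose 720 pairings give a smallest p of 0.00139, a moderate relation was not detectable. Ctrl and Dapa mice were not used, because the groups form separate clusters of the ratio and their numbers could not be joined in full.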

How the data were processed

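Kidney RNA from 17 mice (5 Ctrl, 6 Case, 6 Dapa) was read from 1 table. The authors aligned reads to mm10 with HISAT2 and deposited a read count per gene made with Stringtie. The authors also deposited FPKM values. FPKM, count and library total imply a gene length, which differed by at most 0.0022% from its median over the libraries. This check covered genes with at least 50 counts in every library, and not the 3 genes written over 2 lines. For the genes checked, FPKM thus includes no TMM scaling. Of 22561 genes, 3 with entries over 2 lines were left out. The libraries keep strand per the labels, and a strand setting of the authors' count is not given in the sources used here.

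Genes were filtered with filterByExpr and scaled with TMM, and the 2 groups of each comparison were fitted alone with the quasi-likelihood test of edgeR 4.0.16 in R 4.3.3. Benjamini-Hochberg q values cover all genes tested. All 7 genes passed the filter in each. A DEG had q under 0.05 and a fold above 2 on mean FPKM. Other settings tried were the exact test of edgeR, DESeq2 1.42.0, limma 3.58.1 on log2(FPKM + 1) and log2(FPKM + 0.1), other scalings and filters, all 3 groups in 1 fit, mitochondrial genes left out, a term for 8 libraries, the replicate block and each mouse left out. The scaling to early tubule markers and the fits within libraries were added after seeing the data. Correlations with urinary albumin used exact permutations (Python 3.11.15, numpy 2.4.6, scipy 1.17.1, pandas 2.3.3). Figures used matplotlib 3.10.9.

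The 7 genes and the lists were chosen with earlier results of these data known. The genes named were the 7, B2m, Slc5a2, up to 3 genes per list with q under 0.05 and the largest change in Case against Ctrl among those with mean FPKM of at least 1, and the 3 genes most alike to each of the 7. A gene that this rule named is not reported here. The fits were tested on simulated data. Mice are separate animals, so p-values measure the spread between mice. Counts limit precision little here, since the lowest count of the 7 genes was 691. The ATAC-seq and protein measurements were not used here.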

Additional observations from a re-analysis of the deposited data

Results flagged for a closer look

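In Dapa, Dab2 was at 41.9 FPKM in Dapa 7, while the other 5 mice were at 18.9 to 26.5. The gap to the nearest mouse, taken over the whole range of the group, exceeded Dixon's 95% critical value for 6 samples. Lrp2, Fcgrt and Clcn5 were also highest in Dapa 7 within their group.

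In Ctrl, Slc5a2 was at 72.8 FPKM in Ctrl 2 and at 58.6 to 60.7 in the other 4 mice, a gap beyond the critical value for 5 samples. These were 2 of 27 groups checked, where chance flags about 1 in 20.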

How the results depend on the processing

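Lrp2, Lrpap1 and Amn kept their lower calls in Case and in Dapa against Ctrl in every fit without 1 mouse. The calls of the 7 genes were 3 to 5 in Case against Ctrl without 1 mouse, 0 in Dapa against Case and 6 to 7 in Dapa against Ctrl. Scaling to early tubule markers left 1 in Case and 3 in Dapa against Ctrl. Within the 8 libraries that stand apart there were 2, 1 and 7 calls in the 3 comparisons, and within the others 0 in each. Those fits hold fewer mice, and over all genes they called 456, 223 and 4090 within the 8 libraries and 17, 0 and 2 within the others.

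Of the further genes of the route, 25 were called in Case against Ctrl, and 14 with the term for the 8 libraries, 8 within them, 0 within the others and 11 to 28 without 1 mouse (lowest without Ctrl 3). The calls over all genes were 1895, and in the same order 751, 456, 17 and 1002 to 2154. In Dapa against Case DESeq2 and the exact test called 1 each and the 8 libraries alone 4. In Dapa against Ctrl the others called 0, and fits without 1 mouse 32 to 50 (lowest without Ctrl 1), with 2 and 3227 to 4690 over all genes. Scaling by library total alone turned the split of all calls in Case against Ctrl from 888 higher and 1007 lower to 1241 and 694, with a median shift of 0.11. In Dapa against Ctrl the split went from 2073 and 2187 to 3049 and 1391, with a median of 0.12. The 7 genes kept their directions under it.

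Ctrl and Case share replicate numbers, but same-numbered mice did not deviate together (r from -0.053 to 0.002, and no mouse was most alike to its own number), so the numbers pair nothing. With the replicate block 707 genes were called in place of 1895, 12 genes of the route in place of 25, and 3 of the 7 genes, Fcgrt being lost (q = 0.124). Dapa shares no number with the other groups, so no block could be fitted there.

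Some directions turned. Scaling to early tubule markers moved the median of all genes against Ctrl from 0.031 and 0.015 to 0.42, so that smaller falls turned by construction, and for the other settings the cause was not tested. Of the values that turned, Fcgrt (-0.36), Atp6v1c1 (-0.31) and Vps35 (-0.27) in Case and Epn1, Vps35, Atp6v1c1 and Vldlr in Dapa had passed against Ctrl. On the scale of early tubule markers, Case against Ctrl gave 0.049 for Clcn5, 0.022 for Fcgrt, 0.11 for Vps35 and 0.071 for Atp6v1c1. On it Dapa against Ctrl gave 0.19 for Epn1, 0.12 for Rab38, 0.056 for Vps35, 0.022 for Atp6v1c1, 0.056 for Vldlr and 0.37 for Slc5a2 (q = 0.0317, the 1 turned value that passed), and Dapa against Case gave 0.014 for Amn. With the term, Dapa against Case gave 0.093 for Amn and 0.046 for Lrpap1, and Dapa against Ctrl gave -0.031 for B2m. Within the 8 libraries Amn had 0.086 against Case and B2m -0.32 against Ctrl. Within the others, Dapa against Case gave 0.026 for Cubn, 0.092 for Amn, 0.14 for Fcgrt and 0.081 for Lrpap1, and Dapa against Ctrl gave 0.14 for Dab2, 0.064 for Rab38 and 0.13 for Slc5a2. Slc5a2 in Dapa against Ctrl (-0.029) also had 0.017 with upper quartile scaling, 0.076 by library total and 0.057 and 0.058 with the limma fits. Leaving out 1 mouse gave -0.060 to 0.11 for Dab2 in Case against Ctrl, -0.12 to 0.063 for Amn, -0.22 to 0.016 for Clcn5 and -0.12 to 0.00015 for Lrpap1 in Dapa against Case, and -0.12 to 0.051 for Slc5a2 in Dapa against Ctrl.

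For urinary albumin, r without the 2 farthest mice was 0.26 for Lrp2, 0.58 for Cubn, -0.20 for Clcn5, -0.074 for Fcgrt and 0.43 for Lrpap1, and rho was -0.14 for Fcgrt and 0.14 for Lrpap1. With 4 mice the smallest p is 0.0417.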
